A study of Mus musculus with 6 samples.

Results

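The nuclear-encoded subunits of respiratory complexes II, III and IV and of ATP synthase, with their electron carrier cytochrome c, were measured by RNA-seq in sorted brain endothelial cells. Members were the protein-coding rows whose symbol is Sdha to Sdhd, Cyc1, Cycs, Atpif1, Usmg5 or Ndufa4, or begins with Uqcr, Cox4 to Cox8 or Atp5. The rule uses names and no measured value. It selected 53 of 54532 rows, of which 4 belong to complex II, 9 to complex III, 1 to cytochrome c, 19 to complex IV and 19 to ATP synthase, where Atp5o takes 2 rows. The remaining member, Atp5s, matches by name and is not an established subunit, so it was counted apart. Cox7a2l, a factor that joins complexes III and IV into supercomplexes, was counted with complex IV.

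All libraries came from Df(h22q11)/+ mice, a model of the human 22q11.2 deletion syndrome, so that the heterozygous deletion is common to both groups, and wild-type mice were not analysed here. The mice were 12 to 16 weeks old and ate irradiated base chow (untreated) or chow with 0.5% bezafibrate, a lipid-lowering fibrate and PPAR agonist, for 4 weeks. Each library pools 3 brains of mice of the same sex and chow, from which live cells positive for CD31 and negative for CD45 and PDGFRb were sorted. The untreated libraries are F_1, F_2 and M_1 and the bezafibrate libraries F_1, M_1 and M_2 (F, female; M, male), so 2 of 3 untreated and 1 of 3 bezafibrate libraries are female. Pools of separate animals are the replicates, and the spread between pools is the error below. In pooled cells of this kind, fewer cells of a type and less RNA per cell cannot be told apart.

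Electrons enter at complex II from succinate, pass through the quinone pool to complex III, travel on cytochrome c to complex IV and reduce oxygen there, and ATP synthase uses the proton gradient built up by the chain. Complex II is encoded wholly in the nucleus, whereas complexes III and IV and ATP synthase also hold subunits encoded by mtDNA. Several complex IV subunits exist as tissue isoforms, with forms known from heart and skeletal muscle, testis or low oxygen beside a ubiquitous form. Promoters of these genes are known for binding the nuclear respiratory factor NRF1, the ETS factor GABP (also called NRF2) and the estrogen-related receptors (ERR).

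Recovered reads per library ran from 16858130 to 20228619, and 11060 to 11387 genes reached an FPKM (fragments per kilobase of gene length after scaling for library size) of 1. Defining endothelial markers were present, with 8 of 8 passing the filter and summed FPKM of 7228 to 10554 in untreated and 6338 to 10011 in bezafibrate libraries. Markers of other cells were lower but not absent, and no marker of any list was at 0 in every library. Pericyte markers (9 of 9 passing) summed to 197 to 352 FPKM in untreated and 195 to 272 in bezafibrate libraries, and choroid plexus and ependymal markers (5 of 5) to 358 to 400 and 405 to 936. The choroid plexus and ependymal sums are almost all Ttr, at 349 to 389 FPKM in untreated and 397 to 919 in bezafibrate libraries. Foxj1, Clic6, Kl and Folr1 reached at most 4.72 FPKM in any library. Summed smooth muscle markers (4 of 5 passing) stood at 59.1 to 82.8 and 69.2 to 96.8 FPKM, astrocyte markers (6 of 6) at 21.0 to 31.0 and 15.4 to 27.7, oligodendrocyte markers (6 of 6) at 78.9 to 134 and 76.4 to 85.1, microglial markers (4 of 6) at 20.7 to 21.8 and 16.1 to 21.8, erythrocyte markers (4 of 4) at 45.0 to 296 and 51.3 to 147, and neuronal markers (1 of 4) at 2.19 to 3.35 and 1.69 to 3.76. The first principal component (39.3% of the variance) set untreated M_1 and bezafibrate F_1 apart from the rest.

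Of the 53 members, 48 reached 1 FPKM in 3 or more libraries and were tested. The mean FPKM of these 48 had a median of 31.1, against 6.47 over the 10066 protein-coding genes that passed, and ran from 1.20 for Cox6b2 to 221 for Cox6a1. The 5 that did not pass are Cox6a2, Cox7b2, Cox8b and Cox8c, all isoforms of complex IV, and a second row named Atp5o. The within-group SD of log2(FPKM + 1) had a median of 0.193 over the measured members and 0.220 over protein-coding genes.

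**Figure D1:**
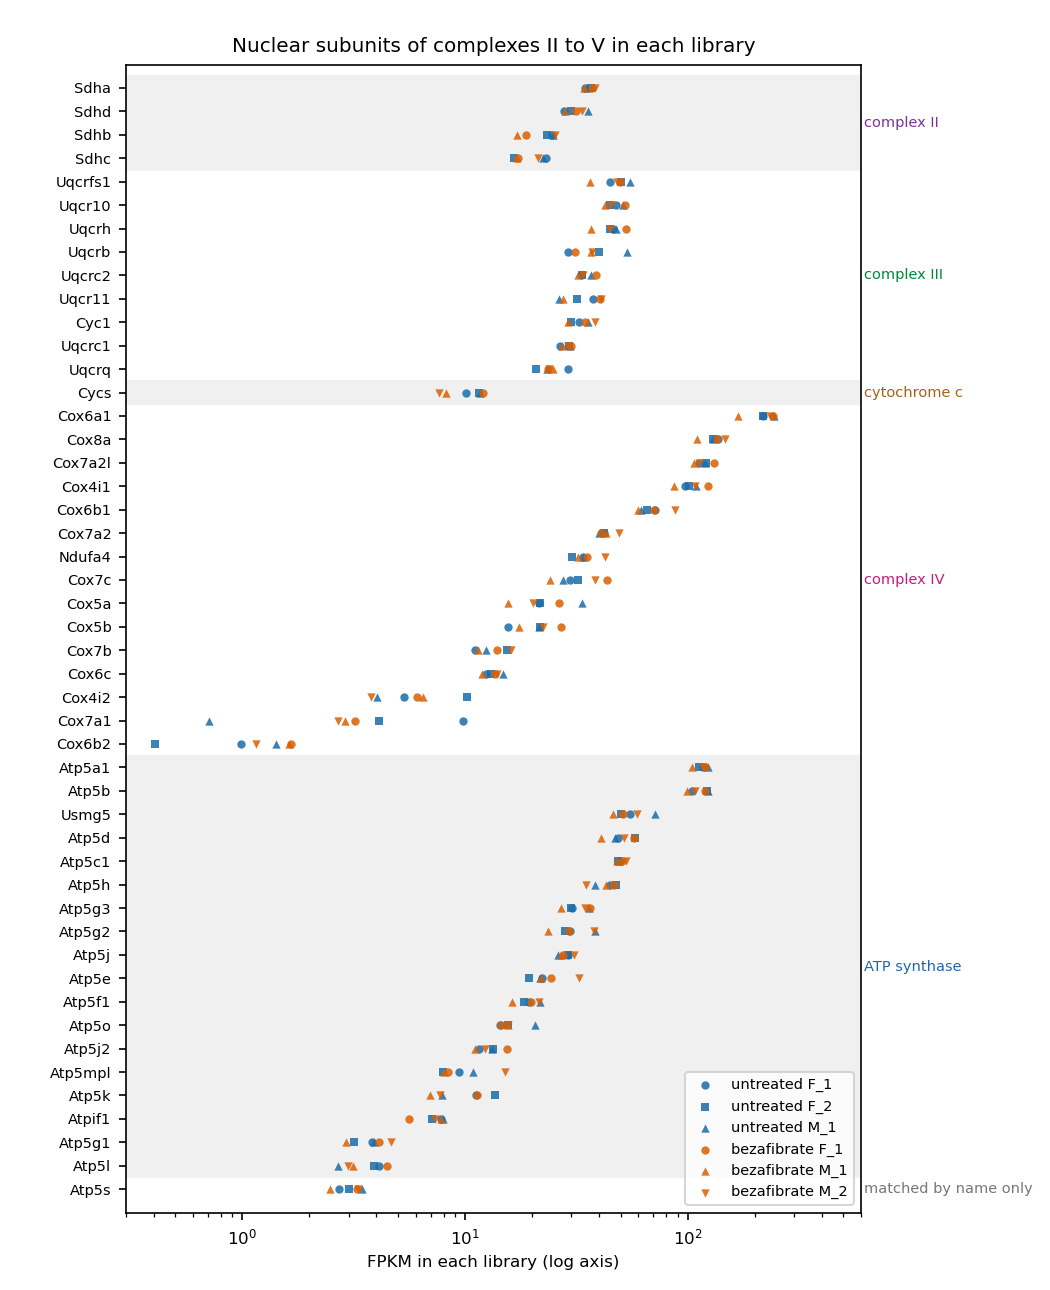
FPKM of each measured member (rows, grouped by complex) in the 6 libraries (log axis; blue untreated, orange bezafibrate, one symbol per library). Complex II and III genes sit in a narrow band, complex IV ranges from 1.20 for Cox6b2 to 221 for Cox6a1 in mean FPKM, and blue and orange points overlap in each of the 48 rows.

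Bezafibrate changed no measured subunit past the threshold. Limma on log2(FPKM + 1), adjusted over 11277 genes, called 0 of 48 members, where 0.00887% of all genes (1 gene) were called. At an unadjusted p under 0.05 there were 0 members against 4.19% of all genes, and the groups overlapped in each of the 48, whereas they did not overlap in 8.42% of all genes. Differences (bezafibrate minus untreated) were above 0 in 22 members and below 0 in 26, and their median was -0.02 on the log2 scale, and over all genes 5432 were positive and 5845 negative with a median of -0.01. Single differences ran from -0.30 for Atp5k to 0.38 for Cox6b2, with a median SE of 0.163, and the smallest limma adjusted p of a member was 0.999.

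How large a change remains compatible with these libraries was read from the 95% intervals of the limma fit. On the log2(FPKM + 1) scale the interval lay within 1 unit of zero for 47 of 48 members, and within the log2 of 1.5 for 35 of 48. The median half-width was 0.38. The exception at 1 unit was Cox7a1, whose interval ran from -1.55 to 1.13. For low members such as Cox6b2, whose interval reached 0.95, the added 1 means that a unit stands for more than a doubling of FPKM.

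**Figure D2:**
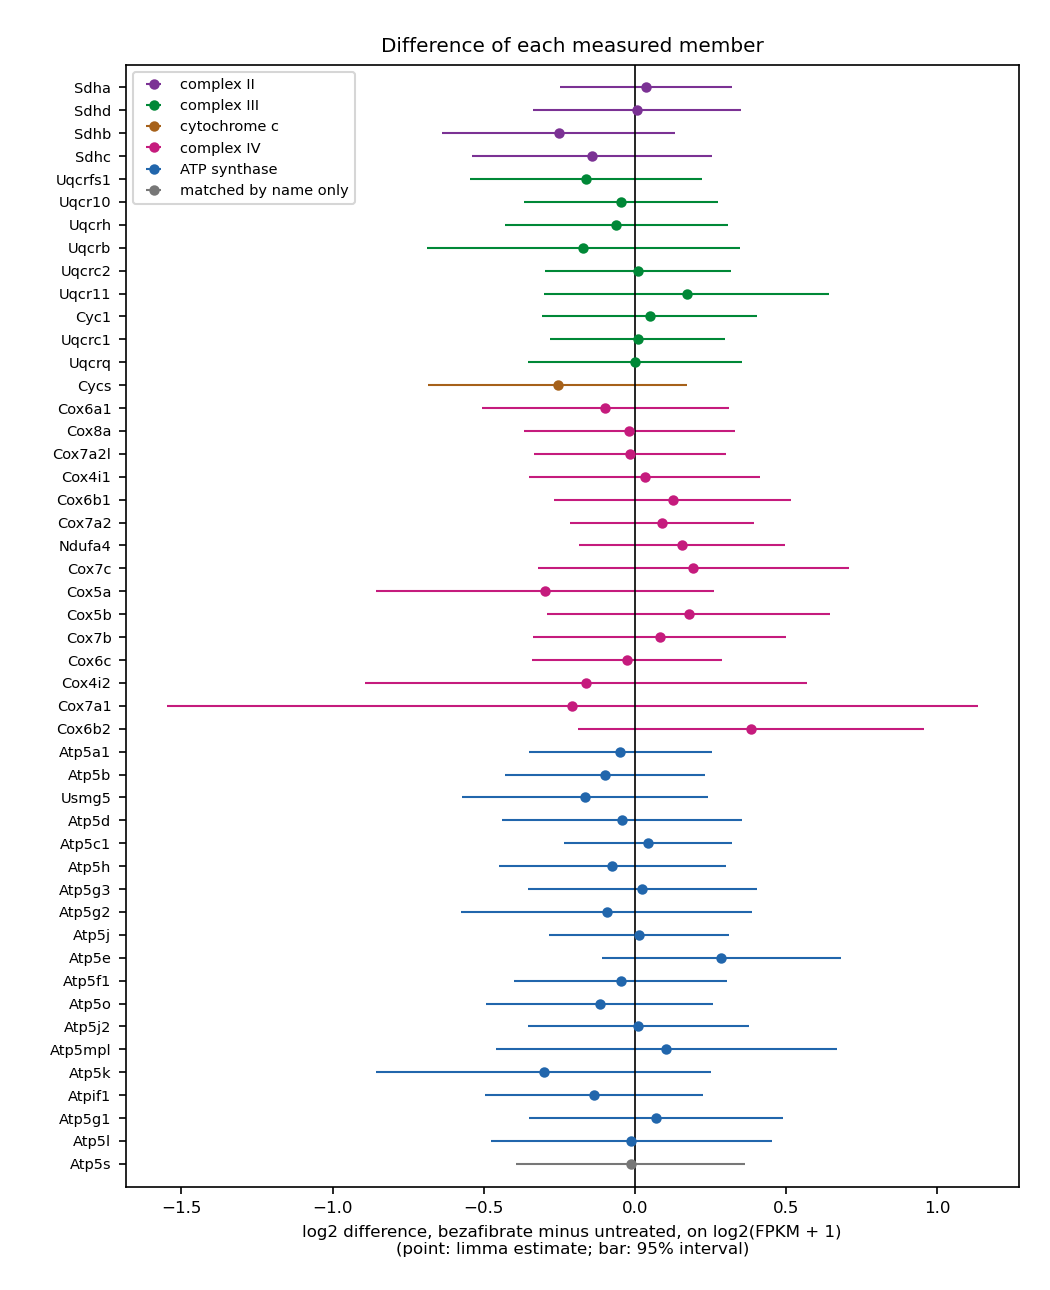
Log2 difference of each of the 48 measured members, bezafibrate minus untreated, on log2(FPKM + 1); points are limma estimates and bars 95% intervals, coloured by complex. Each interval includes 0, and the widest is that of Cox7a1.

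Complex II, which oxidises succinate in the citric acid cycle, showed the tightest levels of the complexes, with a factor of 1.84 between its highest and lowest mean FPKM. Sdha, its flavoprotein subunit (ENSMUSG00000021577, GRCm38 chromosome 13, 74322254 to 74350280, minus strand), had 34.6, 36.8 and 35.4 FPKM in the untreated libraries and 37.1, 34.2 and 38.4 in the bezafibrate libraries, in the order given above, which is kept below. All 6 libraries lay close together and the groups overlapped, at a difference of 0.04 (SE 0.122). Over the 4 genes the median difference was -0.07, with 2 above 0 and 2 below. Sdhb, the iron-sulfur subunit (chromosome 4, 140961203 to 140979193), had 24.5, 23.3 and 24.8 FPKM in untreated and 18.7, 17.2 and 25.3 in bezafibrate libraries. Bezafibrate M_2 was the highest library of all and the other bezafibrate libraries the lowest, and the difference of -0.25 (SE 0.166, limma unadjusted p = 0.167) was not called. The membrane anchors Sdhc and Sdhd differed by -0.14 (SE 0.171) and 0.01 (SE 0.148). Sdhc had 23.1, 16.6 and 22.3 FPKM in untreated and 17.4, 17.1 and 21.3 in bezafibrate libraries, with the lowest library in the untreated group.

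Complex III, the cytochrome bc1 complex, had 5 members above 0 and 4 below, and its median difference was 3.14e-04. Its 9 genes lay within a factor of 1.95 of each other in mean FPKM. The highest was Uqcrfs1, the Rieske iron-sulfur protein (ENSMUSG00000038462, chromosome 13, 30540308 to 30545362, minus strand), with 44.6, 50.1 and 55.0 FPKM in untreated and 49.4, 36.6 and 48.2 in bezafibrate libraries. Bezafibrate M_1 was the lowest library, the other bezafibrate libraries lay within the untreated range, and the difference was -0.16 (SE 0.165). Uqcr11, a small accessory subunit, had 37.6, 31.9 and 26.3 FPKM in untreated and 40.2, 27.7 and 40.8 in bezafibrate libraries, a difference of 0.17 (SE 0.202) with overlapping groups. The core proteins Uqcrc1 and Uqcrc2, both at 0.01 (SE 0.124 and 0.132), differed little, and the haem-bearing Cyc1 stood at 0.05 (SE 0.152). The small subunits Uqcrb, Uqcrh, Uqcr10 and Uqcrq ran from -0.17 to 0.00.

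Cytochrome c is encoded by Cycs, which carries electrons from complex III to complex IV and also triggers apoptosis when released (ENSMUSG00000063694, chromosome 6, 50562563 to 50566538, minus strand). It had 10.1, 11.6 and 11.7 FPKM in untreated and 12.1, 8.23 and 7.66 in bezafibrate libraries. The female bezafibrate library was the highest of the 6 and the male bezafibrate libraries were the lowest. The difference of -0.26 (SE 0.184, limma unadjusted p = 0.203) was not called, and it ran from -0.44 to -0.06 over 17 alternative fits with a smallest adjusted p of 0.452.

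Complex IV, cytochrome c oxidase, was the most uneven in level. Of its 15 measured genes 8 lay above 0 and 7 below, and the median difference was 0.03. Cox6a1 (ENSMUSG00000041697, chromosome 5, 115345642 to 115348981, minus strand), the ubiquitous form of a nuclear subunit of the enzyme, was at the 98.4th percentile of measured protein-coding genes. It had 218, 217 and 245 FPKM in untreated and 241, 168 and 234 in bezafibrate libraries. Bezafibrate M_1 alone lay below the rest, and the difference was -0.10 (SE 0.176). Cox5a, a structural subunit of the enzyme, had 21.6, 21.8 and 33.4 FPKM in untreated and 26.3, 15.5 and 20.1 in bezafibrate libraries, a difference of -0.30 (SE 0.240) in which untreated M_1 was far above the other untreated libraries. Ndufa4, first described with complex I and later assigned to complex IV, had 33.8, 30.4 and 33.7 FPKM in untreated and 35.3, 32.2 and 42.3 in bezafibrate libraries (0.16, SE 0.146). The other ubiquitous subunits, Cox5b, Cox6c, Cox7b and Cox7c, ran from -0.03 to 0.19. In this group Cox5b had 15.6 to 21.6 FPKM in untreated and 17.5 to 27.0 in bezafibrate libraries, and Cox7c 27.5 to 32.3 and 23.9 to 43.2.

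In ATP synthase 7 members lay above 0 and 11 below, and the median difference was -0.05. Atp5a1 and Atp5b, of the catalytic head, were the most abundant members. Atp5a1, the alpha subunit (ENSMUSG00000025428, chromosome 18, 77773729 to 77782869), had 117, 112 and 124 FPKM in untreated and 120, 105 and 117 in bezafibrate libraries (-0.05, SE 0.130). Atp5b, the catalytic beta subunit, stood at 117 ± 10.1 and 109 ± 10.4 FPKM (SD, n = 3 each). The head and central stalk subunits gamma, delta and epsilon, encoded by Atp5c1, Atp5d and Atp5e, differed by 0.04, -0.04 and 0.29. Atp5e had the smallest p of the 48 members (limma, unadjusted p = 0.132), with 22.1, 19.4 and 21.7 FPKM in untreated and 24.4, 21.9 and 32.3 in bezafibrate libraries. The bezafibrate M_2 library was far above the others, and untreated F_1 lay above bezafibrate M_1, so that the groups overlapped (SE 0.169).

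The peripheral stalk and membrane part of ATP synthase gave values on both sides of 0. The stalk genes Atp5f1, Atp5h, Atp5j and Atp5o ran from -0.12 to 0.01. Atp5k, subunit e, which takes part in dimerising the enzyme, had 11.2, 13.7 and 7.87 FPKM in untreated and 11.3, 6.95 and 7.69 in bezafibrate libraries. Its 3 female libraries were the 3 highest. The difference by chow was -0.30 (SE 0.238) and the groups overlapped. The other small membrane subunits Atp5j2, Atp5l, Atp5mpl and Usmg5 ran from -0.17 to 0.10. Atpif1, which blocks ATP hydrolysis by the enzyme when the gradient collapses, stood at 7.63 ± 0.478 FPKM in untreated and 6.90 ± 1.15 in bezafibrate libraries (-0.14, SE 0.155). Atp5s, counted apart, had 2.71, 3.00 and 3.43 FPKM in untreated and 2.47 to 3.31 in bezafibrate libraries (-0.01, SE 0.162).

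As deposited, bezafibrate M_1 held the lowest FPKM for 27 of the 48 measured members and the highest for 0, and the mean of log2(FPKM + 1) over the members was 4.55 there against 4.72 to 4.79 in the other libraries. The ratio of summed reads to the library size behind the FPKM, called the composition ratio here, was 0.888 there. It was 0.897 in bezafibrate M_2 and 0.950 to 1.09 in the other libraries. Bezafibrate M_2, with nearly the same ratio, was highest for 14 members and lowest for 3 as deposited. After rescaling each library to a common sum of FPKM (TPM), bezafibrate M_1 was lowest for 5 members, untreated M_1 for 17 and untreated F_2 for 16, and bezafibrate M_2 was highest for 23. TPM moved the median difference of all genes from -0.01 to 0.10 and that of the members from -0.02 to 0.10. Under TPM 36 members lay above 0 and 12 below, where 7702 of all genes lay above and 3575 below. By complex, the TPM medians were 0.05 for complex II, 0.12 for complex III, 0.15 for complex IV and 0.07 for ATP synthase, while Cycs stayed below 0 at -0.16. The negative medians of complex II and ATP synthase as deposited thus turn positive under TPM. Relative to the median of all genes they lay lower on either scale, and those of complexes III and IV higher. The part of the scaling in the signs of these medians was not tested. The SD of a complex mean within groups was 0.126 for complex II, 0.10 for III, 0.118 for IV and 0.0968 for ATP synthase on the log2 scale.

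Tissue isoforms of complex IV were measured mainly as the ubiquitous form. Cox6a2, the heart and skeletal muscle form of Cox6a1, and Cox7b2 and Cox8c, known from testis, had 0 reads in all 6 libraries, which allows up to 0.207 to 0.368 FPKM per library at 3 reads. Against a floor of 3 reads summed over all libraries, Cox6a1 was at least 5691-fold higher per length than Cox6a2, Cox8a at least 2291-fold higher than Cox8c and Cox7b at least 275-fold higher than Cox7b2. Cox8b, the muscle form of Cox8a, had 5 reads in untreated F_1 and 4 in untreated F_2 (0.691 and 0.624 FPKM) and 0 in the other 4 libraries, whereas Cox8a stood at 111 to 148 FPKM.

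Cox4i2, a form of Cox4i1 known for its response to low oxygen and for expression in lung, had 5.30, 10.2 and 4.03 FPKM in untreated and 6.06, 6.50 and 3.78 in bezafibrate libraries. Cox4i1 had 97.3, 101 and 109 FPKM in untreated and 124, 86.4 and 108 in bezafibrate libraries, so that Cox4i2 made up 3.40% to 9.16% of the pair's FPKM. The log2 ratio of Cox4i1 to Cox4i2 was higher by 0.19 with bezafibrate, where its SD was 0.64 in untreated and 0.49 in bezafibrate libraries. The exact permutation test gave a two-sided p of 0.6, but with 3 against 3 libraries it cannot go below 0.1 and so could make no call.

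Cox7a1, the heart and skeletal muscle form of Cox7a2, had the largest SE of the members. It had 9.76, 4.09 and 0.705 FPKM in untreated and 3.22, 2.90 and 2.69 in bezafibrate libraries, from 105, 39, 7, 31, 33 and 27 reads. The untreated libraries spanned the whole range and the bezafibrate libraries lay together inside it. Its share of the Cox7a2 and Cox7a1 pair ran from 1.73% to 18.8%. The difference of -0.21 (SE 0.576) became 0.42 without untreated F_1 and -0.91 without untreated M_1 (limma unadjusted p = 0.0220, adjusted p = 1.00), and over 16 alternative fits the smallest adjusted p was 0.510. Cox7a2 itself had 42.1, 42.0 and 40.0 FPKM in untreated and 40.7, 42.7 and 49.2 in bezafibrate libraries.

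Pericyte transcripts were set beside these minor forms. Ndufa4l2, the paralog of Ndufa4 known from low oxygen and from pericytes, had 15.3, 15.8 and 6.79 FPKM in untreated and 10.1, 11.6 and 14.5 in bezafibrate libraries. The pericyte marker Higd1b, a relative of the complex IV factor Higd1a, had 9.63, 11.7 and 3.37 FPKM in untreated and 7.28, 9.16 and 8.17 in bezafibrate libraries. Untreated M_1 was the lowest library for Cox7a1 and Ndufa4l2 and for 4 of 9 pericyte markers (Higd1b, Kcnj8, Notch3 and Pdgfrb), bezafibrate M_1 was lowest for 4 (Abcc9, Atp13a5, Rgs5 and Vtn), and bezafibrate M_2 was lowest for Cspg4 and for Cox4i2. The summed pericyte markers were 318, 352 and 197 FPKM in untreated and 244, 195 and 272 in bezafibrate libraries. The part of pericyte RNA in the levels of Cox4i2, Cox7a1 and Ndufa4l2 was not tested.

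**Figure D3:**
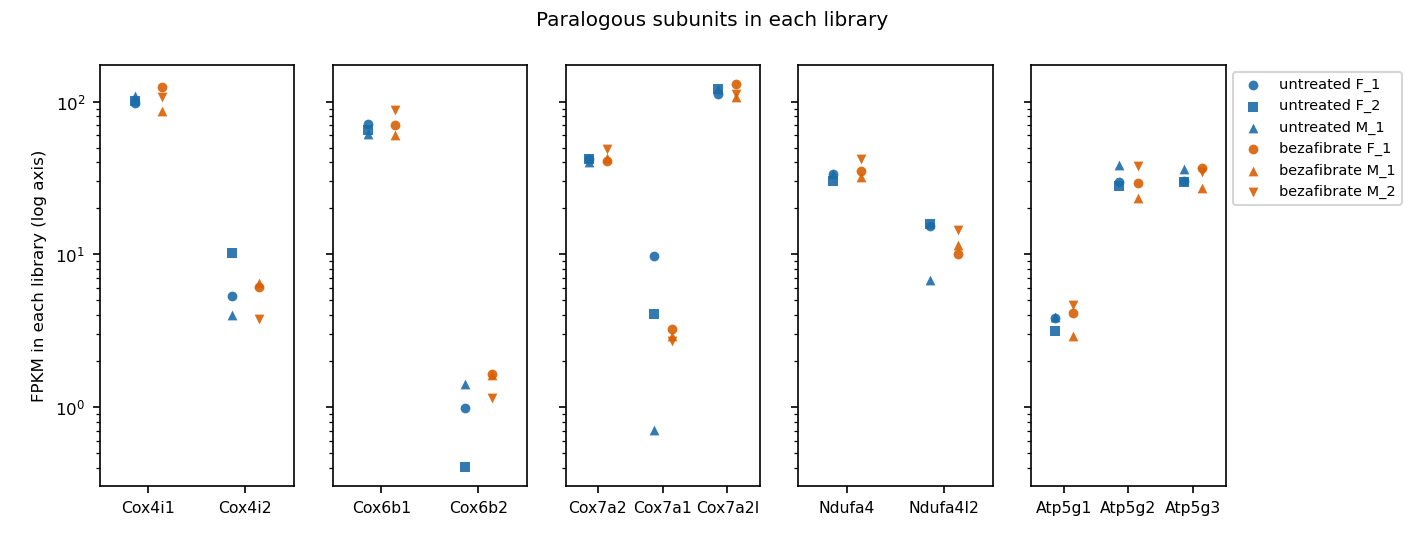
FPKM of paralogous subunits in each library (log axis; blue untreated, orange bezafibrate). The ubiquitous Cox4i1, Cox6b1 and Cox7a2 lie above Cox4i2, Cox6b2 and Cox7a1 in each library, Cox7a1 spreads from 0.705 to 9.76 in untreated libraries, and Atp5g2 and Atp5g3 lie together above Atp5g1.

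Cox6b2, the testis form of Cox6b1, lay at the edge of detection, with 0.987, 0.405 and 1.41 FPKM in untreated and 1.65, 1.61 and 1.15 in bezafibrate libraries. It had the largest difference of the members (0.38, SE 0.246, limma unadjusted p = 0.159), from 154 reads in all, and overlapping groups. Cox6b1 had 71.0, 65.5 and 61.4 FPKM in untreated and 70.4, 60.0 and 87.8 in bezafibrate libraries, a factor of 57.6 above Cox6b2 in mean FPKM. Cox7a2l, the paralog of Cox7a2 that serves supercomplex assembly, was the more abundant gene of that pair, at 112, 121 and 120 FPKM in untreated and 131, 107 and 113 in bezafibrate libraries.

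The c-ring of ATP synthase is built from 1 mature peptide that 3 genes encode with different import sequences. Atp5g2 had 29.7, 28.0 and 38.4 FPKM in untreated and 29.2, 23.5 and 38.1 in bezafibrate libraries. Atp5g3 had 30.1, 29.9 and 36.2 FPKM in untreated and 36.5, 27.0 and 34.7 in bezafibrate libraries. Atp5g1 was lower, at 3.84, 3.17 and 3.89 FPKM in untreated and 4.12, 2.92 and 4.67 in bezafibrate libraries. As deposited, the mean FPKM of Atp5g2 was 0.961 times that of Atp5g3, and Atp5g1 had 0.116 times the mean FPKM of Atp5g3. With reads divided by the length of the principal transcript in GENCODE, the means were 71.4 for Atp5g2, 97.7 for Atp5g3 and 3.92 for Atp5g1. The levels of these genes were not tested against each other. As a caution on these levels, 13.1% of the 75-base words in the principal transcript of Atp5g2 occur in no other gene. The deposited length of Atp5g1 is 4912 bases and its principal transcript has 4715, against 731 for Atp5g2 and 723 for Atp5g3. Reads summed over the libraries were 2111 for Atp5g1, 5946 for Atp5g2 and 8056 for Atp5g3. Atp5g1 is thus the lowest in reads as well, but the size of its gap in FPKM depends on these unlike lengths.

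Of 12 paralog pairs fixed for comparison, 8 had both genes measured. The difference of the log2 ratio (bezafibrate minus untreated) ran from -0.26 for Cox6b1 over Cox6b2 to 0.30 for Cox7a2 over Cox7a1. The exact permutation p ran from 0.2 to 0.8 and each adjusted p was 0.8, but 3 against 3 libraries cannot give a p below 0.1, so this test could make no call. Single libraries weighed heavily on the ratios. With a library left out, that of Cox7a2 to Cox7a1 ran from -0.31 to 0.98, that of Cox4i1 to Cox4i2 from -0.15 to 0.49, that of Ndufa4 to Ndufa4l2 from -0.09 to 0.53 and that of Cox6b1 to Cox6b2 from -0.50 to -0.05. Among the others, Cox7a2 to Cox7a2l ran from 0.01 to 0.24, Atp5g1 to Atp5g2 from 0.07 to 0.24, Atp5g1 to Atp5g3 from -0.02 to 0.12 and Atp5g2 to Atp5g3 from -0.25 to -0.02.

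Promoters, taken from RefSeq for GRCm38.p6 as 250 bases before to 50 bases after the start, were matched for 40 members and for 17491 protein-coding genes in all. They are shown for 1 gene of each complex and for Cycs because each of these 5 holds the NRF1 motif. All are printed 5′ to 3′ on the strand of the gene, which is the minus strand in each case, with motif matches in capitals. The regions are chr13:74350191-74350490 for Sdha, chr10:80406772-80407071 for Uqcr11, chr6:50566520-50566819 for Cycs, chr5:115348909-115349208 for Cox6a1 and chr2:73911277-73911576 for Atp5g3.
Sdha: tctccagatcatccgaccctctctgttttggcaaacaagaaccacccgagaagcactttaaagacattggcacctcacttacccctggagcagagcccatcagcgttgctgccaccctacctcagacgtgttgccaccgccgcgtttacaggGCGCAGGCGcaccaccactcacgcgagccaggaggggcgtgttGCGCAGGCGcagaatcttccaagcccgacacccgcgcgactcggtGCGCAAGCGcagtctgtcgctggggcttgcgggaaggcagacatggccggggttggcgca
Uqcr11: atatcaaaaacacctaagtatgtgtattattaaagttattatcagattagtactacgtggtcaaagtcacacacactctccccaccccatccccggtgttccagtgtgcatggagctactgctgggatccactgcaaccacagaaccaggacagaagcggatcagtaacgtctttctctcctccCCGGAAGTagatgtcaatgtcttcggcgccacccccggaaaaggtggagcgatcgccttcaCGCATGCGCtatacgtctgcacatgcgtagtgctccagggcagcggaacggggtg
Cycs: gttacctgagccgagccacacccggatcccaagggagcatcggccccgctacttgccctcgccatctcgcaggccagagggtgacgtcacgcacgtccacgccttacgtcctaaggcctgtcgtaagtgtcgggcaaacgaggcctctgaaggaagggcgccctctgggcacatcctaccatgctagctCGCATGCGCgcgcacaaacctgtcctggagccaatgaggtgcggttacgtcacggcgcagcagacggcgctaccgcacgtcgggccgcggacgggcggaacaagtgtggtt
Cox6a1: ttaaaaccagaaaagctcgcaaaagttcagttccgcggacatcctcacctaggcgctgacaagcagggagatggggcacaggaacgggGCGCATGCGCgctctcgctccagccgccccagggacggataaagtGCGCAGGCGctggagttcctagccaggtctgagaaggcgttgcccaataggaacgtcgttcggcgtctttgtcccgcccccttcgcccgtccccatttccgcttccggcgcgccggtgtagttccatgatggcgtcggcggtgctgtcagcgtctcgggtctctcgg
Atp5g3: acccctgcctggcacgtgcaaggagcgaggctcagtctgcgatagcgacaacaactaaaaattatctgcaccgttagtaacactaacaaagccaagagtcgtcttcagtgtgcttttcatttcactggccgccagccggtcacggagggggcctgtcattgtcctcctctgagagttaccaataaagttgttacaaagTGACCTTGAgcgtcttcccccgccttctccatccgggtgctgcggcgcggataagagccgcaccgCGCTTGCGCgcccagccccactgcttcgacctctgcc
In Sdha the capitals mark 3 NRF1 matches (GCGCANGCG on either strand), and in Cox6a1 they mark 3 matches, of which a pair overlaps on opposite strands. In Uqcr11 the first run in capitals is the ETS/GABP motif (CCGGAAGT) and the second the NRF1 motif. In Atp5g3 the first is the ERR motif (TCAAGGTCA, here on the other strand) and the second the NRF1 motif, and in Cycs a single NRF1 match is marked.

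The NRF1 motif was found in 13 of 40 member promoters (32.5%) and in 8.83% of all protein-coding promoters. It was uneven between complexes, with 2 of 3 in complex II (Sdha, Sdhd), 2 of 5 in complex III (Uqcr11, Uqcrc1), 1 of 14 in complex IV (Cox6a1) and 7 of 16 in ATP synthase (Atp5g2, Atp5g3, Atp5h, Atp5k, Atp5l, Atp5o, Atpif1). The ETS/GABP motif was in 4 promoters (10% against 5.29%), those of Atp5h, Uqcr11, Uqcrh and Cox8a. The ERR motif was in 2 (Atp5g3 and Sdhd; 5% against 0.332%), and the YY1 motif AAGATGGC in 2 (Atp5f1 and Atp5j2; 5% against 3.22%). A PPAR element, taken as AGGTCA repeated after 1 base with at most 1 mismatch, was in 0 of 40 and in 0.457% of all promoters, which says only that these letters are not in these windows. The GC content had a median of 56.2% in member promoters and 56.3% in all. The 13 members with the NRF1 motif had 5 positive and 8 negative differences with bezafibrate (median -0.08), and the 25 measured members with a promoter that lacks it 12 and 13 (median -0.01). No test was made of these shares. Where RefSeq lists several promoters of a gene, the one nearest the start in the table was taken for members. For all protein-coding genes the first listed was taken, so the shares rest on unlike choices. Some starts in RefSeq lie away from those of the table, by 3643 bases in Atp5d. Among members with the NRF1 motif, the distance was 1755 bases in Atpif1 and 1305 in Atp5g2.

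**Figure D4:**
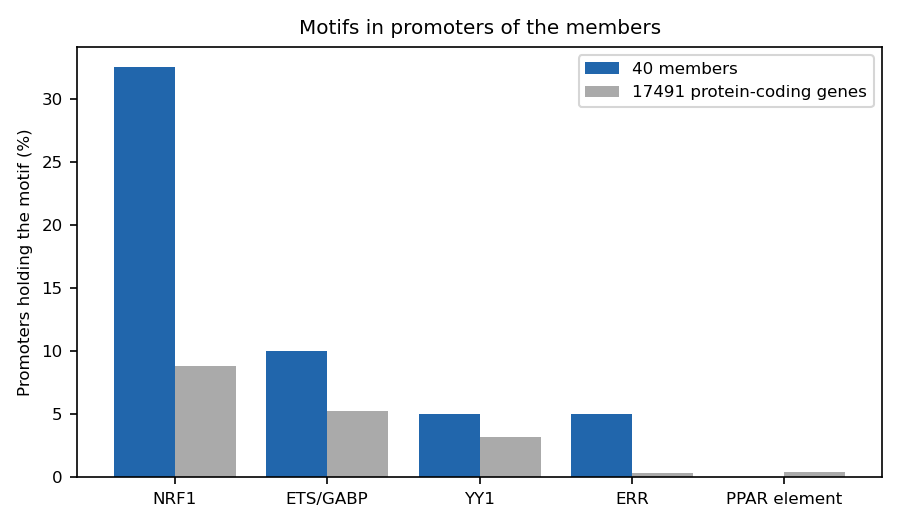
Share of promoters that hold each motif on either strand (bars, % from 0), for 40 members (blue) and 17491 protein-coding genes (grey). The NRF1 motif stands at 32.5% against 8.83%, and the PPAR element at 0 against 0.457%.

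The order of levels within a complex depends on the length by which reads were divided. The deposited length was set beside that of the principal transcript in GENCODE for the 45 measured members in which it equals the summed exon length there. It was a median of 1.66 times the transcript length and at least 2 times in 18. Atp5l, subunit g of ATP synthase, is the extreme of these 45, with 6443 bases against 544, so that its mean of 3.54 FPKM would be 41.9 over the transcript length. Atp5j, coupling factor 6, went from 28.3 to 109 FPKM on that count, Atp5e from 23.6 to 98.6, Cox6c from 13.3 to 64.3 and Atp5b from 113 to 249. Usmg5, left out because its deposited length differs from the summed exons, goes the other way. It has 341 deposited bases against 2733, so that its mean of 55.5 FPKM would be 6.92. Differences between the groups within a gene do not involve its length, apart from the added 1.

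**Figure D5:**
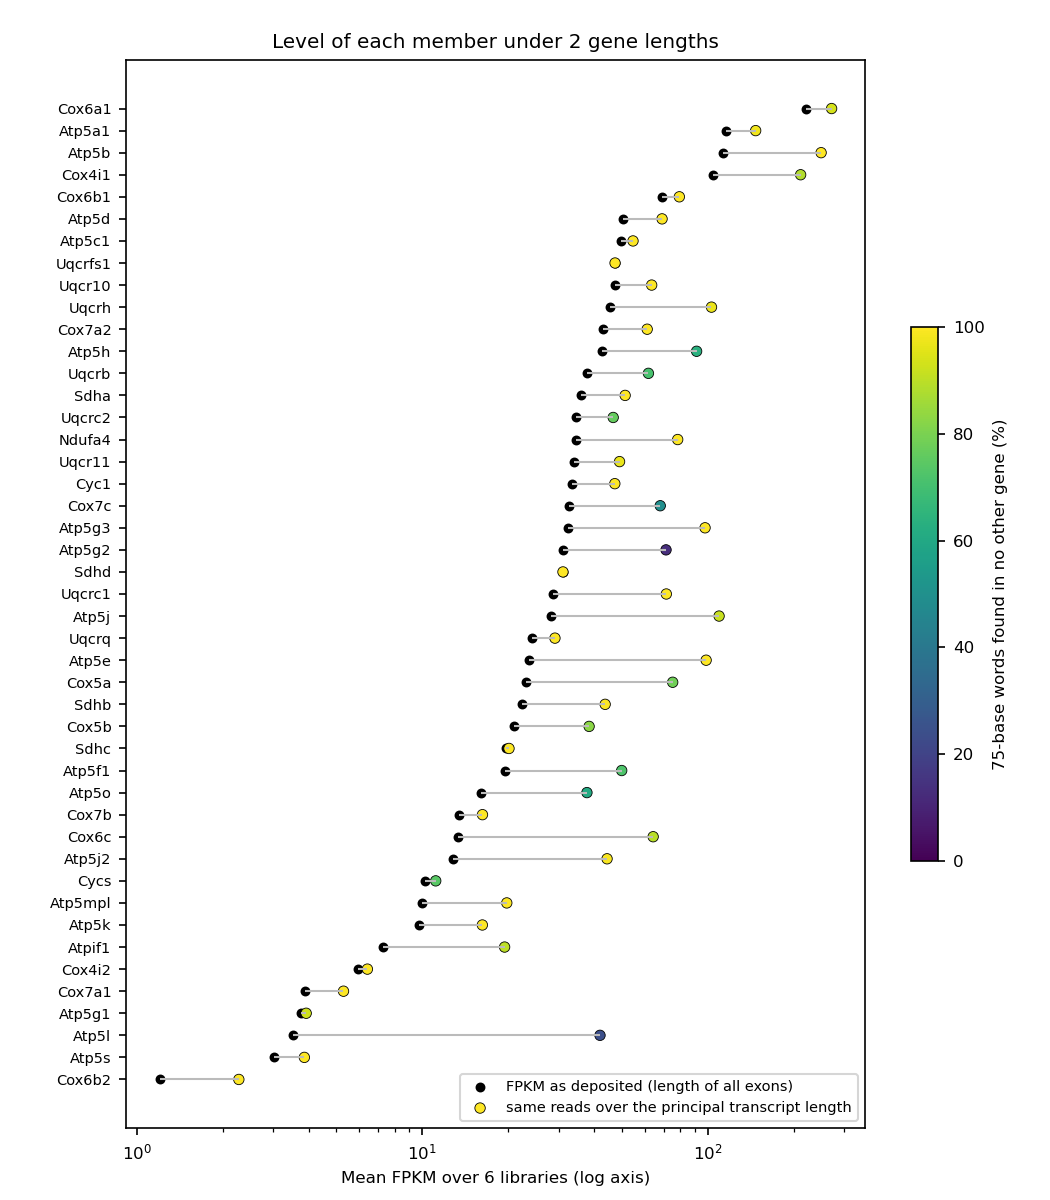
Mean FPKM of 45 members over 6 libraries (log axis) as deposited (black) and with the same reads divided by the principal transcript length (coloured by the share of 75-base words found in no other gene). Atp5l moves from 3.54 to 41.9 FPKM, and Cox6a1 is the highest on both counts.

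Copies elsewhere in the genome touch some of these counts. Of the 48 measured members, 25 shared no 75-base word of their principal transcript with another gene. In 14 members fewer than 90% of these words were unique. Exons outside the principal transcript, which also enter the counts, were not searched. The lowest were Atp5g2 (13.1%), Atp5l (24.0%) and Cox7c (49.6%), so their levels are uncertain where reads were split between copies. There were 35 pseudogenes that share a word with 16 measured members, of which 14 passed the filter, and 0 had more reads than its member. They included Gm10221 (29.3 FPKM, a copy of Atp5l), Gm10250 (23.6, Atp5h), Gm10039 (23.1, Atp5g1) and Gm12338 (18.3, Cox7c). In FPKM, Gm10221 and Gm10039 lay above their members, Atp5l at 3.54 and Atp5g1 at 3.77, whose deposited lengths are 6443 and 4912 bases. Gm10250 and Gm12338 lay below theirs, Atp5h at 42.5 and Cox7c at 32.5. Limma called 0 of these 14, with 0 at an unadjusted p under 0.05 (4.19% of all genes), and 10 lay above 0 and 4 below, where 5432 of all genes lay above and 5845 below. In addition 5 members overlap a neighbouring gene in at least 10% of their exon bases, the largest share being 33.7% in Atpif1 with Gm12999. Whether counting used strand is not stated in the labels.

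Assembly factors of complexes II to V, a fixed list of 40 genes, had 31 measured members with 16 positive and 15 negative differences and a median of 0.03. Limma called 0 of them and 1 lay at an unadjusted p under 0.05, where 4.19% of all genes did, and the groups did not overlap in 2 of 31 against 8.42% of all genes. The gene under 0.05 is Uqcc3, which helps to assemble complex III, with 12.3, 10.2 and 13.1 FPKM in untreated and 16.4, 20.5 and 15.9 in bezafibrate libraries. All 3 bezafibrate libraries lay above all 3 untreated ones, a difference of 0.53 (SE 0.158, limma unadjusted p = 0.0108, adjusted p = 0.999). The groups also did not overlap in Sco1, a copper chaperone of complex IV, with 1.06, 2.50 and 2.40 FPKM in untreated and 2.73, 3.29 and 2.82 in bezafibrate libraries. Higd1a, a factor of complex IV that responds to low oxygen, had 8.92 ± 2.04 and 7.05 ± 1.08 FPKM (SD, n = 3 each).

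The mtDNA-encoded partners in complexes III and IV and ATP synthase had differences below 0 in 6 of 6, with a median of -0.27, where 5845 of 11277 genes lay below 0. Limma called 0 of them, and 1 lay at an unadjusted p under 0.05 (4.19% of all genes), mt-Atp8, from low counts (1.91 ± 0.404 against 0.754 ± 0.208 FPKM, SD, n = 3 each). The groups did not overlap in mt-Atp8 and in mt-Co1 (7480 ± 878 against 6004 ± 254 FPKM), 2 of 6, against 8.42% of all genes. Nuclear members of the same complexes lay on both sides of 0, but the difference between the sets of genes was not tested. In mt-Co1, 60.2% of 75-base words are unique. In mt-Co2, mt-Atp6 and mt-Co3, 0.49%, 0.49% and 0.14% of words are unique. Most of their words are shared with the unprocessed pseudogenes Gm28661, Gm10925 and Gm28437.

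Sex was compared as male minus female with treatment as a covariate, over 3 female and 3 male libraries. Limma called 0 of 48 members against 0.0266% of all genes (3 genes), and 2 members lay at an unadjusted p under 0.05 against 2.94% of all genes. They are Atp5k, already described as highest in the female libraries, at -0.58 (SE 0.156, limma unadjusted p = 0.00865, adjusted p = 1.00), and Atp5l, at -0.44 (SE 0.151, limma unadjusted p = 0.0253, adjusted p = 1.00). Atp5l had 4.10, 3.89 and 4.48 FPKM in the female libraries (untreated F_1, untreated F_2 and bezafibrate F_1) and 2.68, 3.12 and 2.96 in the male ones (untreated M_1, bezafibrate M_1 and M_2), without overlap, and its few unique words limit what this value says. The share of all genes without overlap by sex was not counted. Both genes encode small membrane subunits of ATP synthase, but the 18 measured members of that complex had 9 positive and 9 negative differences by sex. The members as a whole had 20 positive and 28 negative differences by sex and a median of -0.01.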

How the data were processed

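Brain endothelial cells of 6 pools were sorted, cDNA was made with SMART-Seq HT and libraries with Nextera XT, and single-end reads of 75 bases were de-duplicated and mapped with Salmon, per the labels' protocols. The submitters' processing notes name GRCm38; the Salmon version and the annotation are not stated. Deposited values are FPKM per gene, made by the authors, and its gene length equals the summed exon length in GENCODE vM21 for 53325 of 54409 genes found there. The column of untreated M_1 carries another number and was assigned through its sample description.

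FPKM times length gave whole reads for 100% of values at a tolerance of 0.01, which served for depth and floors (counting error only). Log2(FPKM + 1), which understates changes of low genes, was fitted with limma 3.58.1 (R 4.3.3, statmod 1.5.0; lmFit, eBayes with trend) for 11277 genes with FPKM of at least 1 in 3 libraries, with Benjamini-Hochberg adjustment over all, called under 0.05. The script was tested on simulated data. Per-library values are given for the highest member and the 2 of smallest p in each complex, isoform pairs and assembly factors under 0.05, and other values were chosen after they were seen. Pseudocount, filter, scaling, covariates, weights, limma-voom and left-out libraries were varied. Members and lists were chosen with earlier results of these data known. Promoters are from RefSeq.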

Additional observations from a re-analysis of the deposited data

How the results depend on the processing

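The 17 alternative fits called 0 of the measured members each, with a smallest adjusted p of 0.309 (Atp5k, without both untreated M_1 and bezafibrate F_1), and the fit on the composition ratio of the libraries was chosen after seeing the data. Between 0 and 15 of the 48 members changed sign, and 773 of 810 member values moved by less than 1 SE. Members under an unadjusted p of 0.05 numbered at most 3 (Cycs, Atp5k and Cox6b2 with array weights, where 10.2% of all genes lay there; Cycs, Atp5k and Cox7a1 without both libraries, 8.41%), and leaving out 1 library gave Cox7a1 (without untreated M_1), Cycs (bezafibrate F_1), Cox7c (bezafibrate M_1) and Sdhb (bezafibrate M_2), against 2.89% to 8.71% of all genes in fits without 1 library. Genes called over all ran from 0 to 3 with a library left out, with 3 without bezafibrate F_1 and 0 without bezafibrate M_1 or M_2. The count was 0 by limma-voom and 0 without both libraries. Genes called by sex ran from 1 to 4 with a library left out, and were 1 without bezafibrate M_1 or M_2. Rescaling to TPM and limma-voom on the recovered reads gave medians of 0.117 and 0.111 for complex III, 0.0708 and 0.0654 for ATP synthase, and 0.147 and 0.146 for assembly factors, where the median of all genes was 0.0997 and 0.0987. With a library left out the medians ran from -0.15 to -0.01 for complex II, -0.08 to 0.05 for complex III, -0.44 to -0.14 for Cycs, -0.04 to 0.11 for complex IV, -0.0821 to 0.0550 for ATP synthase (0.0550 without bezafibrate M_1) and -0.0439 to 0.141 for assembly factors (0.141 without bezafibrate F_1). The cause of these shifts was not tested.

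Library names shared across the groups by the titles (F_1 and M_1) were not taken to pair libraries: their deviations from the group means correlated at -0.363 and -0.299. By its column number untreated M_1 would go with bezafibrate M_2, at -0.156, and no block was fitted on that number. With the name from the titles as a replicate block, which leaves 1 residual degree of freedom, 0 genes were called and the complex II median was -0.226. With 3 libraries a group, 1 of 48 intervals exceeded 1 unit on the log2(FPKM + 1) scale, and low reads limit Cox6b2, Cox7a1 and Cox8b.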

Other observations

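Treatment by sex was fitted as an interaction with 2 residual degrees of freedom, in which bezafibrate females and untreated males are 1 library each. Limma called 0 of 48 members (smallest adjusted p = 0.104) against 75 of 11277 genes, and 2 members, Cox5a and Cox7a1, lay under an unadjusted p of 0.05, against 21.3% of all genes. Gm10221, the copy of Atp5l, had 24.8, 28.9 and 26.0 FPKM in untreated and 30.4, 30.0 and 35.6 in bezafibrate libraries, a difference of 0.26 (SE 0.137) that limma did not call (adjusted p = 0.999), and it was chosen after its values were seen.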
